A study of Equus caballus with 45 samples.

Results

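Cultured equine chondrocytes were compared with cultured equine synoviocytes after both had been exposed to inflammatory cytokines and to medium conditioned by resting mesenchymal stromal cells (MSC). The comparison rests on 6 RNA-seq libraries of the 45 in the series and of the 33 in the joint cell count table, chosen by label, with 3 libraries for each cell type. Every well received IL-1β and TNF-α, each at 20 ng/mL, and conditioned medium (CM) from MSC that had been given no agonist. The study's methods describe cytokines and CM followed by 24 h of culture, whereas its abstract gives a shorter cytokine exposure and a wash before the CM. Whether cytokines and CM were present together is therefore not settled here. After 24 h the wells were washed, and RNA was taken after a further 24 h in culture. The 3 libraries of a cell type are labelled AG1, ORC or PC, which is read here as the MSC donor of the medium. Of these names only PC recurs among the MSC libraries of the series, so AG1 and ORC could not be matched to an MSC library. The chondrocytes came from cartilage of the femur and patella and the synoviocytes from synovium of the same kind of joint, the femoropatellar joint, and both were expanded in culture. The study's overview gives 1 healthy donor horse for the joint cells, and the synoviocytes and the chondrocytes were separate preparations. A difference between the cell types therefore cannot be told apart from a difference between preparations, and the p-values measure the spread between libraries of one preparation and not between horses. In these bulk libraries, fewer cells of a type and less RNA per cell cannot be told apart.

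Chondrocytes are the resident cells of articular cartilage and build a matrix of type II collagen and the large proteoglycan aggrecan. Fibroblast-like synoviocytes line the joint, secrete hyaluronan and lubricin, and lie on a connective tissue rich in type I collagen, fibrillar glycoproteins and vessels. Both are mesenchymal, both respond to IL-1β and TNF-α through NF-κB, and both carry positional programmes of homeobox genes from limb development.

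Total counts per library ran from 25193501 to 37427167, and 14206 to 14723 genes had at least 1 count. Values below are normalised read counts (CPM, counts relative to library size after TMM scaling), and the 3 libraries of a cell type are always given in the order AG1, ORC and PC medium. CPM is not corrected for gene length, so levels are compared between libraries and not between genes. The chondrocyte library with ORC medium stood apart. Between the chondrocyte libraries with AG1 and PC medium 0 genes differed by 2-fold or more (CPM + 1), whereas 517 and 556 genes did so between these and the ORC library. Among the synoviocyte libraries 2 genes differed between AG1 and PC medium, and 70 and 41 between these and the ORC library. Leukocyte transcripts were near absent from both cell types. Summed over 24 markers they reached 16.0 to 18.6 CPM in chondrocytes and 17.4 to 22.3 CPM in synoviocytes, against 16438 to 19130 CPM in the macrophage libraries with resting MSC-CM. Of these markers, 13 had no count in any chondrocyte library and 7 had none in any synoviocyte library. The sample labels give a lower cytokine dose for the macrophages, whereas the study's methods give the same dose.

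Of 14217 genes tested, 652 were higher in chondrocytes (4.59%) and 877 were lower in chondrocytes (6.17%) at an adjusted p below 0.05 and a fold change of at least 2. A gene that meets both conditions is referred to as called, and log2 fold changes are chondrocyte minus synoviocyte, so that negative values mark genes higher in synoviocytes. Where the log2 fold change had to reach 2, the calls were 310 (2.18%) and 571 (4.02%). Without the ORC chondrocyte library, 14079 genes were tested and 859 (6.1%) and 1147 (8.15%) were called. That library was singled out after it was seen to stand apart. The AG1 and PC chondrocyte libraries that remain had 0 genes 2-fold apart, so small adjusted p values without it follow in part from its removal. The median log2 fold change over all genes tested was 0.01. Counts for the gene lists below are to be set against 4.59% and 6.17% of all genes, or 6.1% and 8.15% without the ORC chondrocyte library. With no addition, 3.85% and 4.96% of all genes were at least 2-fold higher and lower. Some list counts lay near or under these shares. Called higher were 5.26% of contractile, 6.25% of small leucine-rich proteoglycan and 3.51% of interferon-stimulated genes. Called lower were 1.96% of replication and mitosis genes and 7.41% of cartilage genes.

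Genes were ranked by size among called genes with a symbol, a mean of at least 10 CPM in the higher cell type and no overlap between the cell types. Genes listed only by an Ensembl identifier were left out, some of which had differences as large. The 10 ranked genes with the largest log2 fold changes in favour of chondrocytes were of mixed function. The organic cation transporter SLC22A3 stood at 202, 6.59 and 205 CPM in chondrocytes and 1.08, 0.583 and 0.709 CPM in synoviocytes (log2 fold change 7.46, SE 1.28, adjusted p = 0.00499). The ORC library was thus well below the other chondrocyte libraries but still above every synoviocyte library. The adhesion receptor ADGRG6 was even across chondrocytes, with 24.9, 20.5 and 22.8 CPM in chondrocytes and 0.0978, 0.0729 and 0.248 CPM in synoviocytes (log2 fold change 7.34, SE 0.27, adjusted p = 3.5e-06). TRPV4, a mechanosensitive calcium channel of cartilage, was measured at 15.1, 11.9 and 13.6 CPM in chondrocytes and 0.0326, 0.328 and 0.213 CPM in synoviocytes (log2 fold change 6.19, SE 0.39, adjusted p = 3.39e-05). Both genes were near the floor of 3 counts in synoviocytes. A lack of overlap between the cell types was a condition for naming the genes of this group, SLC22A3 included. The remaining genes of this group were the adaptor SHC3 (7.05), the neutrophil chemokine CXCL8 (6.08), the mineralisation enzyme alkaline phosphatase ALPL (5.64), the transferrin family protein MELTF (5.57), the scaffold WWC1 (5.55), inducible nitric oxide synthase NOS2 (5.45) and the forkhead factor FOXC2 (5.24).

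In the other direction, several genes had no count at all in chondrocytes. CTNND2, a catenin of cell junctions, had 0 counts in every chondrocyte library and 19.5, 12.0 and 19.2 CPM in synoviocytes, which is at least 172-fold higher against a floor of 3 counts per library. NTRK2, the receptor for brain-derived neurotrophic factor, was likewise at 0 in chondrocytes and at 16.7, 11.6 and 13.6 CPM in synoviocytes, at least 142-fold higher. The membrane skeleton protein EPB41L3 followed the same pattern, at least 136-fold higher in synoviocytes. IL1RL1, the receptor for IL-33, stood at 0.0262, 0 and 0.0322 CPM in chondrocytes and 25.0, 8.75 and 21.1 CPM in synoviocytes, a ratio of 874 (95% counting interval 241 to 7221) in favour of synoviocytes. CYRIA, a regulator of Rac1, had a ratio of 873 (95% counting interval 298 to 4237) and the neuropeptide gene NMU one of 539.6 (95% counting interval 184 to 2619). SFRP4, a secreted Wnt antagonist, was measured at 0.341, 0.0799 and 0.161 CPM in chondrocytes and 65.3, 60.7 and 62.0 CPM in synoviocytes (log2 fold change -8.16, SE 0.25, adjusted p = 1.69e-06). EPDR1 (-8.19), the latrophilin ADGRL2 (-7.95) and the transcription factor EBF2 (-7.88) completed the 10 genes. None of these genes overlapped between the cell types, which was a condition for naming them.

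Calls among cartilage genes were mostly higher in chondrocytes, but most of the list was not called. Of 36 genes on the cartilage list 27 could be tested, and 7 were called higher (25.9%) and 2 lower (7.41%) in chondrocytes, with a median log2 fold change of 0.51. Over all genes the shares were 4.59% and 6.17%, so the share called lower was near that of all genes. Without the ORC chondrocyte library the counts were 6 and 2 and the median 0.16. Aggrecan (ACAN), the main proteoglycan of cartilage, stood at 14.8, 20.3 and 10.2 CPM in chondrocytes and 0.945, 0.474 and 0.673 CPM in synoviocytes (log2 fold change 4.45, SE 0.34, adjusted p = 9.12e-05). COMP, a pentameric matrix protein of cartilage and tendon, was measured at 26.6, 15.7 and 22.9 CPM in chondrocytes and 1.37, 0.547 and 1.38 CPM in synoviocytes (log2 fold change 4.33, SE 0.33, adjusted p = 9.29e-05). In both genes the lowest chondrocyte library lay above the highest synoviocyte library. The Wnt antagonist FRZB (2.30), the ubiquitin ligase WWP2 (2.37), the collagen-binding integrin subunit ITGA10 (1.33) and the homeobox gene NKX3-2 (1.33) were called higher too, and CILP2, a matrix protein of cartilage, had a ratio of 35.4 (95% counting interval 11.8 to 174). For NKX3-2 the log2 fold change fell under the threshold without the ORC chondrocyte library, at 0.73 (adjusted p = 0.00469). With the MSC donor as a block it was 1.20 (adjusted p = 0.0597), and its call also ended without any 1 synoviocyte library (adjusted p = 0.0878 to 0.137).

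The defining collagen of cartilage was not among them. COL2A1, which encodes type II collagen, had 2, 1 and 0 counts in the chondrocyte libraries and 0 in each synoviocyte library, so it was at or under the floor of 3 counts everywhere and was not tested. COL9A1 was at 0 in all 6 libraries, MATN1 had 2, 0 and 2 counts and CNMD 0, 0 and 1 counts in chondrocytes, and both were at 0 in synoviocytes. Matrilin 3 (MATN3) and SCRG1, both on the cartilage list, were called lower in chondrocytes, at -3.55 and -3.40. Their levels were low, with log2 ratios of mean CPM + 1 of -1.46 and -0.93. The markers SOX5, SOX6, COL11A1, COL11A2 and HAPLN1 were not among the called genes. Among the cartilage markers, aggrecan and COMP were thus higher in chondrocytes, MATN3 was lower and type II collagen was at the floor. The cells are called chondrocytes here after their label. SOX9, the transcription factor that drives cartilage genes, stood at 9.79, 65.2 and 9.17 CPM in chondrocytes and 5.51, 6.82 and 5.95 CPM in synoviocytes and was not called (log2 fold change 2.23, SE 0.74, adjusted p = 0.067). Its 3 chondrocyte values lay above all synoviocyte values, but the ORC library was several times the other chondrocyte libraries, and without it the log2 fold change was 0.67 (adjusted p = 0.00318).

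On the list of genes of the synovial lining and of synovial fibroblasts most calls were in favour of synoviocytes. Of 26 genes tested, 2 were called higher and 9 lower in chondrocytes, 15 were called in neither direction, and the median log2 fold change was -1.03. The lubricin gene PRG4, the hyaluronan synthase gene HAS1 and the synovial fibroblast markers CD55, CLIC5, PDPN, FAP and CDH11 were not among the called genes. VCAM1, the adhesion molecule of lining fibroblasts that binds leukocytes, stood at 242, 18.9 and 256 CPM in chondrocytes and 1142, 1126 and 1255 CPM in synoviocytes (log2 fold change -2.74, SE 0.76, adjusted p = 0.0373). The chemokine CXCL12 was measured at 5.77, 14.2 and 6.92 CPM in chondrocytes and 23.6, 26.9 and 23.6 CPM in synoviocytes (log2 fold change -1.44, SE 0.30, adjusted p = 0.0124). The stromal surface protein CD248 was measured at 22.2, 51.2 and 19.5 CPM in chondrocytes and 115, 142 and 112 CPM in synoviocytes (log2 fold change -1.96, SE 0.34, adjusted p = 0.00534). For each of the 3 genes all synoviocyte libraries lay above all chondrocyte libraries, and the ORC chondrocyte library was the lowest for VCAM1 and the one nearest to the synoviocytes for CXCL12 and CD248. The Wnt antagonist SFRP1 (-1.76), the receptor NOTCH3 (-1.60), the feedback inhibitor of EGF signalling ERRFI1 (-1.01) and the tetraspanin TSPAN15 (-1.44) were also called lower in chondrocytes. The nuclease DNASE1L3 was at very low counts, with a ratio of 46.9 (95% counting interval 7.99 to 1896). THY1, the surface antigen CD90 of sublining fibroblasts, stood at 56.3, 208 and 44.4 CPM in chondrocytes and 354, 276 and 307 CPM in synoviocytes and was not called (log2 fold change -1.57, SE 0.53, adjusted p = 0.0715), whereas without the ORC chondrocyte library its log2 fold change was -2.60 (adjusted p = 1.09e-08). CRTAC1 behaved alike, with an adjusted p of 0.113 with all libraries and a log2 fold change of -3.23 (adjusted p = 9.67e-09) without that library. Exceptions were the growth factor HBEGF (1.01) and the guidance cue SEMA3A (4.30), which were called higher in chondrocytes. SEMA3A was at a low level, with a log2 ratio of mean CPM + 1 of 1.18. The calls of VCAM1 (adjusted p = 0.0626 to 0.106), TSPAN15 (0.0559 to 0.111) and HBEGF (0.0528 to 0.0928) ended when any single library other than the ORC chondrocyte library was left out. ERRFI1 fell under the fold threshold without the ORC chondrocyte library, at -0.89 (adjusted p = 0.000235), and without the AG1 or PC synoviocyte library, and the call of NOTCH3 ended without the PC synoviocyte library. With the MSC donor as a block, HBEGF at 0.98 (adjusted p = 0.0493) and TSPAN15 at -1.44 (adjusted p = 0.0544) were no longer called, THY1 at -1.95 (adjusted p = 0.0455) was called, and 1 listed gene was higher in chondrocytes.

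**Figure D1:**
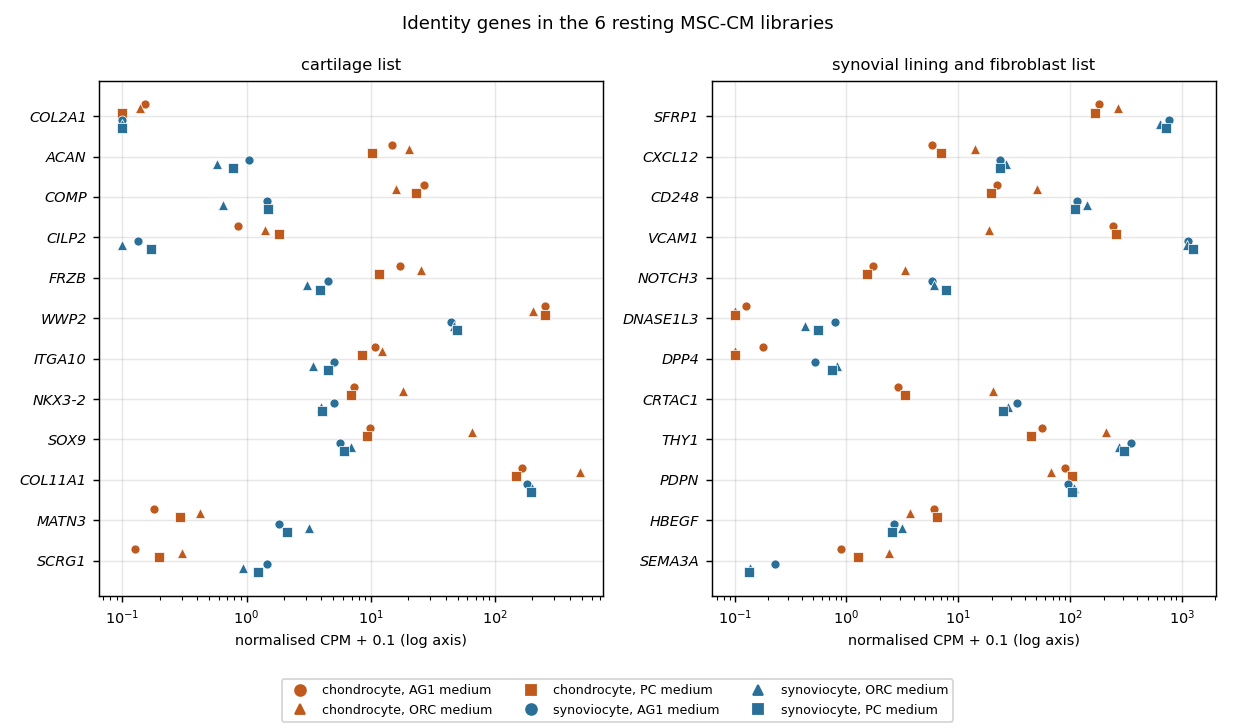
Normalised CPM + 0.1 on a log axis for genes of the cartilage list (left) and the synovial list (right), 1 point per library, with colour for the cell type and shape for the MSC donor of the medium. ACAN and COMP separate the cell types fully, COL2A1 lies at the floor in all 6 libraries, and for SOX9, THY1 and CRTAC1 the ORC chondrocyte library lies apart from the other chondrocyte libraries.

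Calls among interstitial matrix genes were lower in chondrocytes, but most of the list was not called. Of 36 genes for fibrillar collagens and fibroblast matrix tested, 0 were called higher and 9 lower in chondrocytes, 27 were called in neither direction, and the median log2 fold change was -0.48. With no addition, where there is 1 library per cell type, 3 of these genes were at least 2-fold higher and 11 at least 2-fold lower in chondrocytes. Elastin (ELN), the core of elastic fibres, stood at 1.73, 3.00 and 1.25 CPM in chondrocytes and 62.5, 107 and 63.7 CPM in synoviocytes (log2 fold change -5.28, SE 0.35, adjusted p = 4.26e-05). Fibulin 2 (FBLN2), which binds elastic fibres and basement membranes, was measured at 85.6, 87.6 and 82.9 CPM in chondrocytes and 967, 995 and 895 CPM in synoviocytes (log2 fold change -3.45, SE 0.10, adjusted p = 1.69e-06). The 2 proteins belong to the same fibre system and neither overlapped between the cell types. The hyaluronan-binding proteoglycan versican (VCAN) was measured at 242, 683 and 300.2 CPM in chondrocytes and 2614, 2717 and 2917 CPM in synoviocytes (log2 fold change -2.72, SE 0.37, adjusted p = 0.00167). Type I collagen genes differed less, with COL1A1 at 13229, 23930.0 and 12286 CPM in chondrocytes and 40424, 39383 and 37559.6 CPM in synoviocytes (log2 fold change -1.21, SE 0.27, adjusted p = 0.0152). COL1A2 had a log2 fold change of -1.22, and thrombospondin 2 (THBS2, -2.34), periostin (POSTN, -4.74) and EFEMP1 (-1.16) were called lower as well. The calls of COL1A1 (adjusted p = 0.0518 to 0.0667) and COL1A2 (0.0533 to 0.0567) ended without the AG1 chondrocyte or the PC synoviocyte library, and that of COL1A1 also without the PC chondrocyte or the AG1 synoviocyte library.

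Basement membrane genes split by chain. Of 21 tested, 3 were called higher and 9 lower in chondrocytes. COL4A1, a chain of the type IV collagen network, stood at 426, 465 and 448 CPM in chondrocytes and 2502, 2219 and 2421 CPM in synoviocytes (log2 fold change -2.38, SE 0.11, adjusted p = 9.85e-06). COL4A2 (-1.88), the linkers NID1 (-2.06) and NID2 (-1.94), COL15A1 (-1.35) and the laminin chains LAMA3 (-1.09) and LAMA4 (-1.80) were lower in chondrocytes in the same way. LAMA2 and COL4A5 had 0 counts in every chondrocyte library and were higher in synoviocytes, LAMA2 by at least 11.5-fold and COL4A5 by at least 3.96-fold. The chains that were called higher in chondrocytes were LAMA5 (1.47), LAMB3 (5.08) and the heparan sulphate proteoglycan agrin (AGRN, 1.58). LAMA5 was measured at 656, 722 and 608 CPM in chondrocytes and 289, 202 and 241 CPM in synoviocytes, with no overlap. LAMA3 fell under the fold threshold without the PC chondrocyte library, at -0.99. The call of LAMA4 ended without the AG1 chondrocyte library or any 1 synoviocyte library (adjusted p = 0.0768 to 0.105).

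Small leucine-rich proteoglycans, which bind collagen fibrils and set their diameter, had calls on either side. Of 16 tested, 1 was called higher and 4 lower in chondrocytes, and the median was 0.12, against -0.02 without the ORC chondrocyte library. With no addition, in 1 library per cell type, 4 of them were at least 2-fold higher and 1 at least 2-fold lower. Fibromodulin (FMOD) stood at 379, 264 and 324 CPM in chondrocytes and 56.2, 22.3 and 43.5 CPM in synoviocytes (log2 fold change 3.02, SE 0.32, adjusted p = 0.0005). Asporin (ASPN) went the other way, at 0.735, 0.799 and 1.22 CPM in chondrocytes and 33.3, 13.6 and 28.1 CPM in synoviocytes (log2 fold change -4.74, SE 0.39, adjusted p = 0.000138). Osteoglycin (OGN, -2.46), podocan (PODN, -1.87) and ECM2 (-1.25) were lower in chondrocytes, and in the synoviocytes the ORC library was the lowest for these genes and for ASPN. Of 19 contractile genes 1 was called higher and 3 lower in chondrocytes, among them smooth muscle myosin MYH11 at 8.50, 17.6 and 7.82 CPM in chondrocytes and 155, 80.3 and 123 CPM in synoviocytes (log2 fold change -3.38, SE 0.36, adjusted p = 0.000534). Without the ORC chondrocyte library the contractile counts were 0 and 5, and myosin light chain kinase MYLK (1.12 with all libraries) was the gene no longer called, at 0.99 (adjusted p = 1.22e-06).

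Positional and patterning transcription factors were called in both directions. HOX genes encode position along the body and limb axes, and of 28 tested, 3 were called higher and 5 lower in chondrocytes. In the HOXD cluster HOXD10 stood at 10.9, 17.7 and 9.04 CPM in chondrocytes and 1.40, 1.24 and 0.992 CPM in synoviocytes (log2 fold change 3.39, SE 0.30, adjusted p = 0.000192). HOXD9 (1.17) and HOXD11 (2.29) were higher in chondrocytes as well. HOXD13, the last gene of the cluster, had 0 counts in chondrocytes and 1.04, 1.09 and 0.957 CPM in synoviocytes, at least 10.5-fold higher. The anterior genes HOXB3 (at least 10.6-fold), HOXB2 (-5.01) and HOXC4 (-1.77) and also HOXC8 (-1.22) were higher in synoviocytes, so the HOXD members tested did not all go one way. The call of HOXC8 ended when any single library other than the ORC chondrocyte library was left out (adjusted p = 0.121 to 0.145).

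Of 75 other limb and mesenchyme transcription factors, 13 were called higher and 19 lower in chondrocytes, and their median was -0.09. Leaving out the ORC chondrocyte library gave 17 and 26 and a median of -0.16. The distal-less genes went in opposite directions. DLX5, a regulator of chondrocyte and osteoblast differentiation, stood at 29.8, 39.6 and 23.1 CPM in chondrocytes and 0.978, 1.24 and 0.815 CPM in synoviocytes (log2 fold change 4.96, SE 0.26, adjusted p = 1.82e-05). DLX3 stood at 1.02, 1.76 and 0.965 CPM in chondrocytes and 30.3, 30.1 and 27.8 CPM in synoviocytes (log2 fold change -4.55, SE 0.21, adjusted p = 9.67e-06). Neither overlapped between the cell types, and DLX6, the neighbour of DLX5, was called higher in chondrocytes (4.45). The same division held for MSX1 (1.60) against MSX2 (-2.63) and for TWIST1 (1.16) against TWIST2 (-2.34), with the first of each pair higher in chondrocytes.

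Further factors higher in chondrocytes were IRX3 (1.72), IRX5 (4.22), the endothelial and haematopoietic regulator GATA2 (2.98), the tendon factor MKX (1.99), MEOX2 (1.29) and RUNX2 (1.53), which drives hypertrophy and bone formation. EBF1, an early factor of B cells and adipocytes, stood at 0.840, 1.64 and 1.13 CPM in chondrocytes and 42.5, 39.9 and 42.0 CPM in synoviocytes (log2 fold change -5.11, SE 0.20, adjusted p = 4.21e-06). TBX18 (-1.17), EYA2 (-1.84), EYA4 (-2.90), OSR2 (-2.03), which is expressed at developing joints, and the tendon factor SCX (-1.43) were also higher in synoviocytes. GATA6, GSC and ZIC1 had 0 counts in every chondrocyte library and were higher in synoviocytes, by at least 7.75-fold, 10.3-fold and 6.38-fold. The call of RUNX2 ended without the PC synoviocyte library (adjusted p = 0.05).

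**Figure D2:**
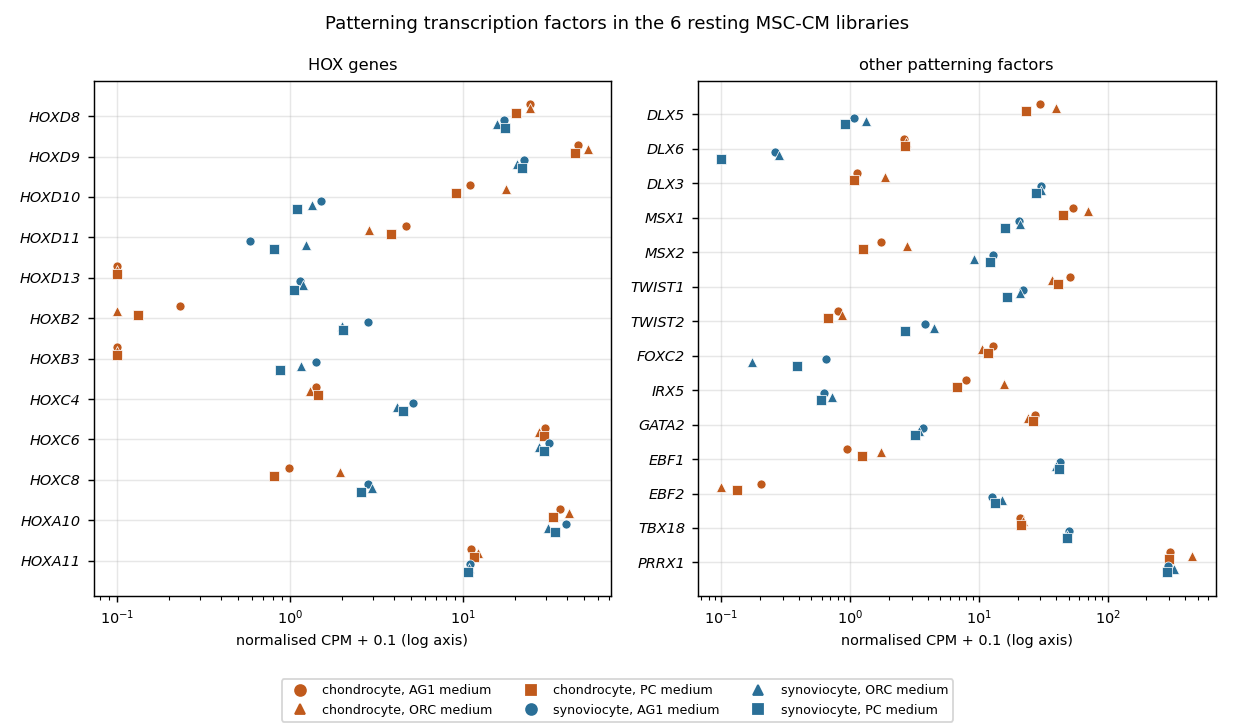
Normalised CPM + 0.1 on a log axis for HOX genes (left) and other patterning transcription factors (right), 1 point per library, with colour for the cell type and shape for the MSC donor of the medium. HOXD10 lies to the right in chondrocytes and HOXB3 and HOXD13 in synoviocytes, and DLX5 and DLX3 lie on opposite sides.

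Wnt pathway genes were called in both directions. Of 47 tested, 11 were called higher and 12 lower in chondrocytes, with a median of 0.39, against 0.24 without the ORC chondrocyte library. Among ligands, WNT5A, which signals without β-catenin, stood at 117, 99.8 and 126 CPM in chondrocytes and 26.5, 32.6 and 29.5 CPM in synoviocytes (log2 fold change 1.98, SE 0.12, adjusted p = 2.48e-05). WNT5B (2.97) followed it, whereas WNT11 (-2.02) and WNT2 (-3.15) were lower in chondrocytes. WNT2 was at a low level, with a log2 ratio of mean CPM + 1 of -1.06. Among receptors, ROR2 was measured at 113, 109 and 109 CPM in chondrocytes and 27.6, 27.1 and 27.5 CPM in synoviocytes (log2 fold change 2.04, SE 0.07, adjusted p = 2.38e-06). Its relative ROR1 (-2.34) and the frizzled receptor FZD10 (-4.11) were lower in chondrocytes. The secreted inhibitors divided, with SFRP2 at 568, 1228 and 483 CPM in chondrocytes and 66.1, 58.7 and 56.8 CPM in synoviocytes (log2 fold change 3.68, SE 0.36, adjusted p = 0.000307). DKK1 (1.69) and FRZB went with SFRP2, while SFRP1, SFRP4 and DKK2 (at least 5.88-fold higher in synoviocytes) went the other way. The enhancer of Wnt signalling RSPO3 was lower in chondrocytes (-4.25), and the target genes AXIN2 (1.61) and TCF7 (2.44) were higher.

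For the TGF-β and BMP family, 47 genes were tested and 4 were called higher and 8 lower in chondrocytes. BMP2, an inducer of cartilage and bone, stood at 65.5, 10.9 and 66.2 CPM in chondrocytes and 8.48, 8.17 and 7.76 CPM in synoviocytes (log2 fold change 2.58, SE 0.58, adjusted p = 0.0157). TGFB3 (-1.57), GDF6 (-2.23), a factor for joint formation, BMP7 (-2.25) and the BMP antagonist CHRDL1 (-1.60) were lower in chondrocytes. The ORC library was the lowest chondrocyte library for BMP2 and BMP7 and the highest for TGFB3 and GDF6. The call of BMP2 ended without the AG1 chondrocyte library or any 1 synoviocyte library (adjusted p = 0.0525 to 0.0762), and that of BMP7 without the ORC or PC synoviocyte library (0.0601 to 0.0634).

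Of 40 FGF, hedgehog and Notch genes, 9 were called higher and 8 lower in chondrocytes. The FGF receptor FGFR2 stood at 47.4, 84.9 and 41.5 CPM in chondrocytes and 7.89, 7.66 and 8.36 CPM in synoviocytes (log2 fold change 2.89, SE 0.27, adjusted p = 0.000251). FGFR3, the receptor that restrains growth plate chondrocytes, had a log2 fold change of 2.03, and the decoy receptor FGFRL1 one of 2.32. The ligands FGF9 (-4.07) and FGF10 (-3.94) were lower in chondrocytes and FGF1 (2.61) was higher. The hedgehog transducer SMO (1.43) and the Notch ligand DLL1 (2.87) were higher in chondrocytes, and the Notch target HEY2 (-2.87) lower.

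Of 39 IGF, PDGF and VEGF family genes, 5 were called higher and 7 lower in chondrocytes. The growth factor IGF2 was measured at 497, 581 and 421 CPM in chondrocytes and 120.1, 69.1 and 93.1 CPM in synoviocytes (log2 fold change 2.44, SE 0.22, adjusted p = 0.000197). Its binding protein IGFBP2 (2.92) and the co-receptor NRP2 (1.55) were also higher in chondrocytes, and ANGPTL2 (-1.88), CCN5 (-1.68) and HGF (-2.75) were lower.

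Matrix-degrading enzymes and their inhibitors were also called in either direction. Of 42 metalloproteinases and inhibitors tested, 6 were called higher and 9 lower in chondrocytes, with a median of 0.05, against -0.00 without the ORC chondrocyte library. MMP13, the collagenase with the strongest action on type II collagen, stood at 4102, 2975 and 4714 CPM in chondrocytes and 492, 183 and 476 CPM in synoviocytes (log2 fold change 3.39, SE 0.39, adjusted p = 0.000732). The gelatinase MMP9 was measured at 150.0, 91.5 and 127 CPM in chondrocytes and 22.3, 18.9 and 15.7 CPM in synoviocytes (log2 fold change 2.73, SE 0.20, adjusted p = 7.57e-05). Neither gene overlapped between the cell types. The membrane-type enzyme MMP16 (3.90) and the inhibitor TIMP1 (1.39) were higher in chondrocytes as well. The aggrecanases ADAMTS5 (-1.07) and ADAMTS15 (-3.09), the procollagen peptidase ADAMTS2 (-1.19) and the inhibitor TIMP3 (-1.39) were lower in chondrocytes. For ADAMTS5 the log2 fold change without the ORC chondrocyte library was -0.94 (adjusted p = 1.29e-05), which is under the fold threshold. The call of ADAMTS2 ended without any 1 library other than the ORC chondrocyte library (adjusted p = 0.0648 to 0.108).

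For several products of the cytokine response the ORC chondrocyte library lay well under the other chondrocyte libraries. Of 51 genes tested, 15 were called higher and 7 lower in chondrocytes, with a median of 0.69, and without that library the counts were 22 and 8. CXCL8 stood at 1391, 43.6 and 1735 CPM in chondrocytes and 12.6, 16.8 and 18.5 CPM in synoviocytes (log2 fold change 6.08, SE 1.16, adjusted p = 0.0079). NOS2 was measured at 228, 18.8 and 296 CPM in chondrocytes and 4.89, 1.46 and 6.27 CPM in synoviocytes (log2 fold change 5.45, SE 1.00, adjusted p = 0.00665). In both genes the ORC library was the lowest of the chondrocytes and still above the highest synoviocyte library. The granulocyte growth factor CSF3 was measured at 60.1, 3.51 and 91.8 CPM in chondrocytes and 3.29, 2.77 and 3.33 CPM in synoviocytes (log2 fold change 4.08, SE 0.95, adjusted p = 0.0186), where the ORC value was close to the synoviocytes. IL1B and IL1A had 0 counts in the ORC library and 6.59 and 8.49 CPM and 3.04 and 4.63 CPM in the AG1 and PC libraries, so that both were called but overlapped with the synoviocytes. Leaving out any 1 library other than the ORC chondrocyte library ended the calls of IL1A (adjusted p = 0.0985 to 0.143) and IL1B (0.1 to 0.142), and the call of CSF3 ended without the PC chondrocyte library or any 1 synoviocyte library (0.0502 to 0.0844).

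Several classical targets of IL-1β were not called with all libraries and were called when the ORC chondrocyte library was left out. This removal was chosen after that library was seen to stand apart. IL6 stood at 3125, 869 and 3348 CPM in chondrocytes and 1079, 667 and 1053 CPM in synoviocytes and was not called (log2 fold change 1.42, SE 0.46, adjusted p = 0.06), and without the ORC library its log2 fold change was 1.82 (adjusted p = 2.03e-06). IL6 was also called with the MSC donor as a block, at 1.23 (adjusted p = 0.0266). PTGS2, the inducible enzyme of prostaglandin synthesis, stood at 2056, 169 and 2620.2 CPM in chondrocytes and 438, 349 and 493 CPM in synoviocytes (log2 fold change 1.95, SE 0.77, adjusted p = 0.109), against 2.48 (adjusted p = 2.64e-08) without it. CCL20 (3.35 (adjusted p = 1.3e-08)), IL11 (1.90 (adjusted p = 3.53e-07)) and TNFAIP6 (1.93 (adjusted p = 2.32e-08)) became called in the same way. With all libraries in the fit, the acute phase protein SAA1 (1.62), complement factor CFB (3.83), lipocalin LCN2 (2.58), superoxide dismutase SOD2 (1.72), LIF (1.48) and the neutrophil chemokine CXCL6 (1.63) were called higher in chondrocytes. SAA1 and CXCL6 belong to families of near-identical copies, and how reads were divided between copies is uncertain. Genes called lower were IL33 (-4.18), IL18 (-4.16), IL7 (-1.70) and osteoprotegerin TNFRSF11B (-1.38), besides VCAM1 and CXCL12. IL33 and IL18 were at low levels, with log2 ratios of mean CPM + 1 of -1.19 and -1.36. The calls of CXCL6 (adjusted p = 0.0753 to 0.0902), SOD2 (0.0605 to 0.0889) and LIF (0.08 to 0.097) ended without any 1 library other than the ORC chondrocyte library, and that of TNFRSF11B ended without the AG1 chondrocyte library or any 1 synoviocyte library (0.0719 to 0.121). IL7 was no longer called without the ORC or the PC synoviocyte library (adjusted p = 0.0581 to 0.0612). With the MSC donor as a block, LIF at 1.34 (adjusted p = 0.0501) was no longer called.

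Of 27 cytokine and pattern receptors, 2 were called higher and 7 lower in chondrocytes, and without the ORC chondrocyte library the counts were 5 and 7. The IL-1 co-receptor IL1RAP stood at 5.70, 4.23 and 5.41 CPM in chondrocytes and 11.4, 13.4 and 13.6 CPM in synoviocytes (log2 fold change -1.29, SE 0.15, adjusted p = 0.000874). The second TNF receptor TNFRSF1B (-1.04) was lower in chondrocytes too, and IL18R1 and the double-stranded RNA sensor TLR3 had 0 counts in all 3 chondrocyte libraries, and in synoviocytes IL18R1 was at least 5.98-fold and TLR3 at least 7.17-fold higher. The interferon receptor subunit IFNAR2 (1.36) was higher in chondrocytes. TNFRSF1B fell under the fold threshold without the AG1 chondrocyte library, at -0.99, or the PC chondrocyte library, at -0.93, and the call of IL18R1 ended without the PC synoviocyte library (adjusted p = 0.0561). With the MSC donor as a block, 1 listed gene was higher.

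On the interferon-stimulated list most calls were lower in chondrocytes, and most genes were not called. Of 57 tested, 2 were called higher and 21 lower in chondrocytes and 34 were called in neither direction, with a median of -0.74, and the counts without the ORC chondrocyte library were 2 and 21. IFI27 stood at 0.394, 1.84 and 0.708 CPM in chondrocytes and 128, 196 and 101 CPM in synoviocytes (log2 fold change -7.24, SE 0.48, adjusted p = 4.28e-05). LGALS3BP, a secreted galectin ligand, was measured at 0.184, 0.320 and 0.354 CPM in chondrocytes and 17.0, 23.8 and 13.1 CPM in synoviocytes (log2 fold change -5.96, SE 0.33, adjusted p = 2.36e-05). SAMD9L, an antiviral factor, had 1 count over the 3 chondrocyte libraries, a ratio of 747 (95% counting interval 134 to 29531). For these 3 genes every chondrocyte library lay far under every synoviocyte library. Smaller differences were seen for the oligoadenylate synthases OAS2 (-1.40) and OAS3 (-1.47), the GTPase MX1 (-1.84), the nuclear body protein SP100 (-2.43) and the peptide transporters TAP1 (-1.21) and TAP2 (-1.15). TAP1 fell under the fold threshold without the ORC chondrocyte library, at -0.99 (adjusted p = 1.62e-06), and MX1 was not called with the dispersion estimated over all 18 libraries (adjusted p = 0.141). The list's members higher in chondrocytes were RSAD2 (1.57), an antiviral enzyme, and UBE2L6 (1.50), a conjugating enzyme for ISG15.

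Of 33 integrins and adhesion genes 5 were called higher and 3 lower in chondrocytes, among them the integrin subunit ITGA8 at 389, 74.0 and 417 CPM in chondrocytes and 23.5, 6.82 and 21.0 CPM in synoviocytes (log2 fold change 4.13, SE 0.71, adjusted p = 0.005). ITGA6 (2.63) and CDH13 (1.90) were higher in chondrocytes, and ITGA4 (-1.84), a subunit of a receptor for VCAM1, and ITGB3 (-2.10) were lower. Of 33 glycolysis and hypoxia genes, 6 were called higher and 2 lower in chondrocytes, and 8 and 1 without the ORC chondrocyte library. The oxygen sensor EGLN3 stood at 102, 35.2 and 104 CPM in chondrocytes and 4.73, 3.79 and 4.50 CPM in synoviocytes (log2 fold change 4.24, SE 0.41, adjusted p = 0.000324), and ENO2 (1.79), ALDOC (1.55), CA9 (1.31) and CA12 (1.48) were higher as well. Of 51 genes of DNA replication and mitosis, 0 were called higher and 1 lower, the spindle checkpoint gene MAD2L1 (-1.06), and the median was -0.38. MAD2L1 fell under the fold threshold without the AG1 chondrocyte library, at -0.98, and without the ORC chondrocyte library the counts were 0 and 2.

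Markers of other cell types were counted in the same fit. Of 8 leukocyte genes tested, 0 were higher and 0 lower. Of 12 endothelial and pericyte genes, 2 were called higher and 1 lower in chondrocytes, against 3 and 2 without the ORC chondrocyte library, and the pericyte proteoglycan CSPG4, also a chondrocyte surface antigen, was measured at 129, 79.8 and 130.1 CPM in chondrocytes and 14.5, 14.9 and 11.4 CPM in synoviocytes (log2 fold change 3.09, SE 0.21, adjusted p = 4.56e-05). Of 17 adipocyte, osteoblast, tenocyte and muscle genes, 5 were called higher and 5 lower in chondrocytes. Bone sialoprotein (IBSP) was measured at 27.6, 17.9 and 28.3 CPM in chondrocytes and 3.03, 0.547 and 2.48 CPM in synoviocytes (log2 fold change 3.62, SE 0.46, adjusted p = 0.00124) and was higher in chondrocytes together with ALPL and RUNX2. The adipocyte regulator PPARG was higher in synoviocytes, with a ratio of 92.8 (95% counting interval 25.3 to 772), and FABP4 followed (-3.80). Both were at low levels, with log2 ratios of mean CPM + 1 of -1.52 and -0.78. Of 6 epithelial and neural genes, 0 were called higher and 2 lower in chondrocytes. The part of other cells in these values was not tested.

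**Figure D3:**
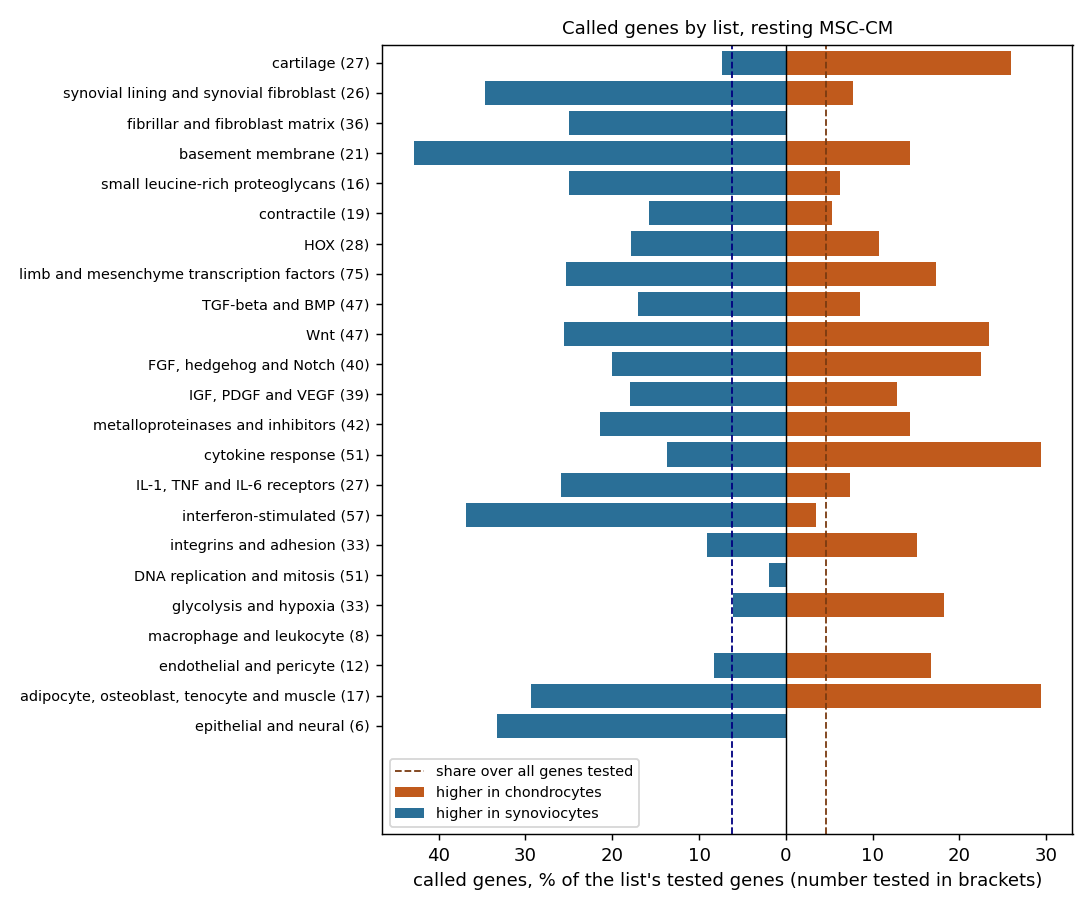
Share of the tested genes of each list called higher in chondrocytes (bars to the right) or higher in synoviocytes (bars to the left) with resting MSC-CM, in percent, with the number tested in brackets and dashed lines at the shares over all genes tested, 4.59% and 6.17%. The interferon-stimulated and basement membrane lists reach furthest beyond the line on the synoviocyte side among lists of at least 20 genes.

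The same contrast could be read in libraries that the comparison above did not use. With medium of MSC activated through TLR3 (TLR-MSC-CM), 14347 genes were tested and 568 (3.96%) were higher and 889 (6.2%) lower in chondrocytes. With medium of MSC activated through STING (STING-MSC-CM), 14287 were tested and 670 (4.69%) were higher and 942 (6.59%) lower. Of the 652 genes higher with resting MSC-CM, 480 (73.6%) were also called higher with TLR-MSC-CM, which is 84.5% of the calls there, and 538 (82.5%) with STING-MSC-CM, 80.3% of the calls there. Of the 877 genes lower, 711 (81.1%) and 735 (83.8%) were called again, 80.0% and 78.0% of the calls with those media. No gene was called in opposite directions in either medium. The wells come from the same cell preparations and the same 3 MSC donors, so these libraries are not independent of the preparations.

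A test of whether the difference between the cell types depended on the medium gave 0 of 15266 genes at an adjusted p below 0.05 with edgeR over 18 libraries, 213 genes at an unadjusted p below 0.05, and 0 and 215 genes with DESeq2. The 213 and 215 are fewer than the share of 0.05 that p-values without any effect would give, so both tests were conservative. The 0 therefore does not show that the difference was the same in each medium. Interferon-stimulated genes had different counts by medium. With TLR-MSC-CM 1 of 60 were called higher and 24 were called lower. Among the 59 tested with STING-MSC-CM the numbers were 3 and 6, with a median of 0.04. The STING count rested on 1 library. LGALS3BP stood at 102, 1.46 and 1.08 CPM in the chondrocytes with STING-MSC-CM, and OAS2 at 88.5, 25.8 and 15.4 CPM, so that the AG1 library was the high one. Without that AG1 library, a setting chosen after seeing the data, 2 of 57 were higher and 21 lower and the median was -0.83. Over all genes, 585 were called higher and 851 lower in that setting, against 670 and 942 with all STING-MSC-CM libraries.

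For 3 genes, picked out after their values were seen, the ORC chondrocyte library lay on the same side of the others in each MSC-CM condition. How many other genes did so was not counted. CXCL8 was lowest with ORC medium in chondrocytes given TLR-MSC-CM, at 3321, 35.3 and 1146 CPM, and STING-MSC-CM, at 1238, 183 and 874 CPM. SOX9 was highest with ORC medium, at 7.41, 69.7 and 10.5 CPM and 9.30, 42.4 and 10.1 CPM. For VCAM1 the ORC libraries were again the lowest, at 276, 27.8 and 246 CPM and 248, 30.3 and 231 CPM. In synoviocytes with resting MSC-CM the ORC library was also the lowest for NOS2, at 4.89, 1.46 and 6.27 CPM, and for MMP13, at 492, 183 and 476 CPM, both picked out after their values were seen. Whether the medium, the well or the library goes with the difference was not tested.

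**Figure D4:**
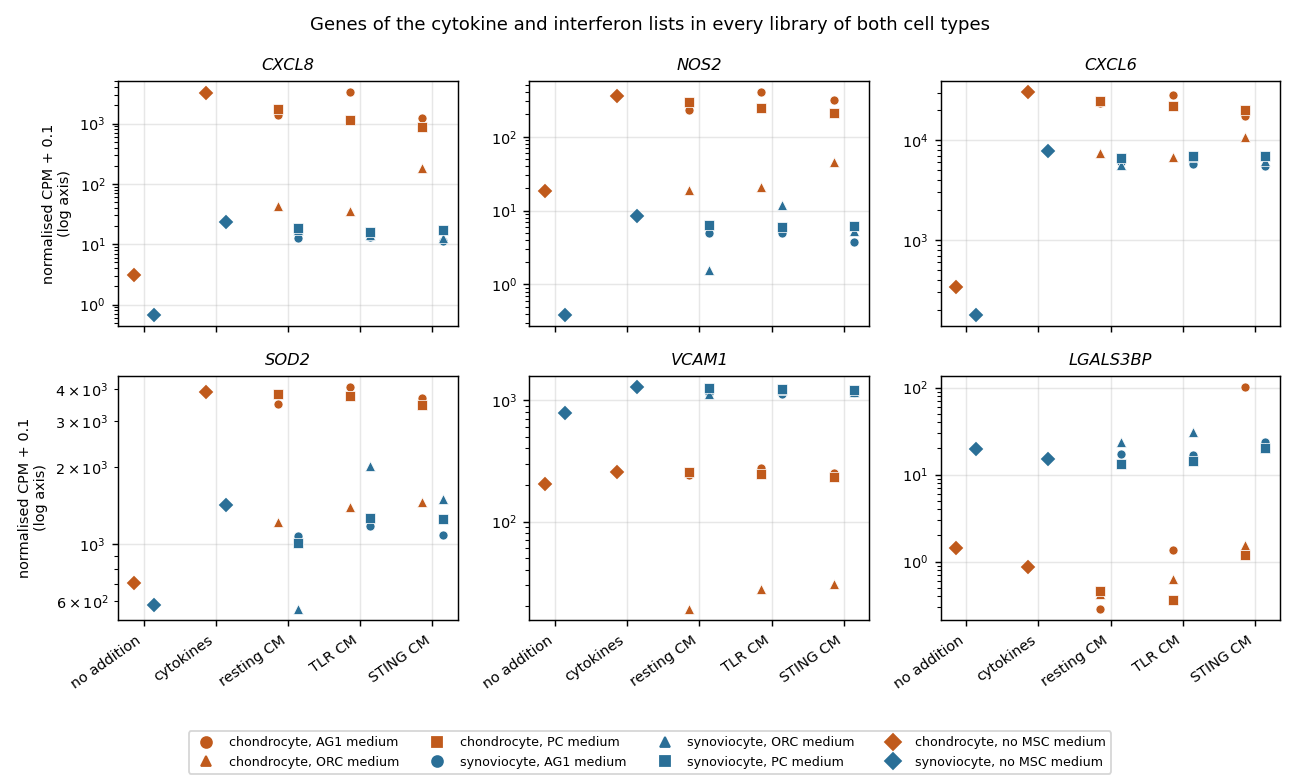
Normalised CPM + 0.1 on a log axis for 6 genes in every chondrocyte and synoviocyte library, by condition, with colour for the cell type, shape for the MSC donor and diamonds for the single libraries without MSC medium. CXCL8 and NOS2 are higher in chondrocytes in each condition, the ORC chondrocyte libraries lie under the other chondrocyte libraries for CXCL8, and LGALS3BP reaches 102 CPM in 1 chondrocyte library, that with STING-MSC-CM of donor AG1.

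Without MSC medium there was 1 library per cell type and condition, so differences are given without a test, as log2 ratios of CPM + 1 over the same 14217 genes. With cytokines alone, 489 genes (3.44%) were at least 2-fold higher and 767 (5.39%) at least 2-fold lower in chondrocytes. With no addition the numbers were 547 (3.85%) and 705 (4.96%). Of the genes higher with resting MSC-CM, 399 (61.2%) were at least 2-fold higher with cytokines alone and 370 (56.7%) with no addition, and of the genes lower, 569 (64.9%) and 480 (54.7%). CXCL8 stood at 3223 CPM in chondrocytes and 23.5 CPM in synoviocytes with cytokines alone, and at 3.01 and 0.579 CPM with no addition. ACAN was highest with no addition, at 96.3 CPM in chondrocytes against 3.54 CPM in synoviocytes, and COMP at 162 against 1.90 CPM. COL2A1 remained near 0 with no addition, at 0.184 CPM in chondrocytes.

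Opposite directions were rare. With cytokines alone no called gene was at least 2-fold apart the other way. With no addition 3 genes were, all of them called higher in chondrocytes with resting MSC-CM, and these were picked out after their values were seen. They were the endothelial lipase LIPG, the prion protein gene PRNP and a gene listed only by its Ensembl identifier. LIPG stood at 421, 71.2 and 619.6 CPM in chondrocytes and 85.5, 89.8 and 95.4 CPM in synoviocytes with resting MSC-CM and at 5.04 CPM in chondrocytes and 12.1 CPM in synoviocytes with no addition. The call of LIPG ended without any 1 library other than the ORC chondrocyte library (adjusted p = 0.119 to 0.148) and with the MSC donor as a block, at 1.66 (adjusted p = 0.114). PRNP stood at 67.1, 42.5 and 60.2 CPM in chondrocytes and 24.3, 12.5 and 22.1 CPM in synoviocytes and, with no addition, at 4.89 and 16.8 CPM.

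**Figure D5:**
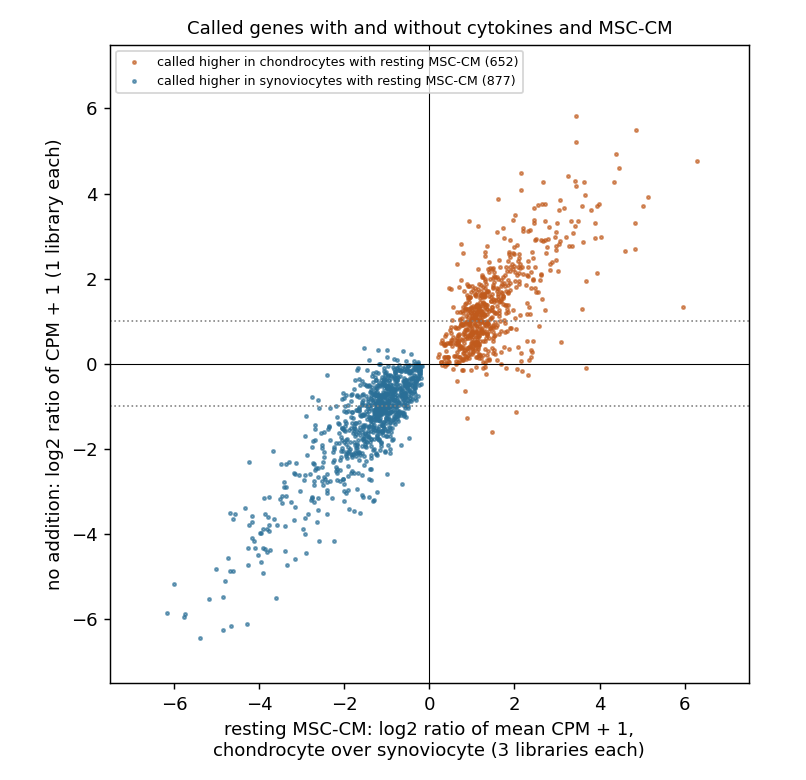
Log2 ratios of chondrocyte over synoviocyte CPM + 1 with resting MSC-CM (horizontal, from the means of 3 libraries each) and with no addition (vertical, 1 library each) for the 652 and 877 called genes, with dotted lines at a 2-fold difference. Most points keep their side, and 3 genes called higher with resting MSC-CM lie beyond the dotted line on the opposite side.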

How the data were processed

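Poly(A) RNA of equine joint cells was sequenced by the study. Per the labels and the methods, adapters were removed with Cutadapt 1.12, STAR served as aligner with EquCab3.0 as the genome, and HTSeq 0.11.0 assigned reads to Ensembl genes, of which the protein coding ones were retained. The deposited values are the resulting raw counts in whole numbers, which the authors had not normalised in these files. The strand setting of the counting is not given in the sources used here, so overlapping and antisense genes cannot be told apart. Of the 20881 genes in the table, 3970 carry only an Ensembl identifier; they were tested and are not named. The MSC count table was not used, and 0 columns came from samples outside the series. Total counts of the 6 libraries had a median of 29869027, and 3 counts corresponded to 0.0787 to 0.120 CPM. Floors and counting intervals cover counting error only, since reads carried no molecular identifiers.

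Each fit took the genes that reached 10 counts in sum over its libraries and used the quasi-likelihood test of edgeR 4.0.16 in R 4.3.3 after TMM normalization, with Benjamini-Hochberg adjustment over all genes tested. A call required an adjusted p below 0.05 and a fold change of 2 or more. The SE is the absolute log2 fold change divided by the square root of the F statistic. The CPM given were scaled by TMM over the 22 chondrocyte and synoviocyte libraries, and the summed leukocyte markers by library totals. Members and gene lists were chosen with earlier results of these data known. Genes named belong to the lists, or are, per direction, the 10 largest called differences among genes with a symbol, at least 10 CPM in the higher cell type and no overlap. For lists with genes at 0 in one cell type, setting those genes to their bound changed no median (a change of 0 in each list). The bounds keep each gene's direction, so this check could hardly have moved a median. Of the written list genes, those missing from the table were not analysed here. Alternatives were DESeq2 1.42.0, other normalizations and filters, a spread shared over 18 libraries, a pseudocount of 0.1 CPM, leaving out each library, and the MSC donor as a replicate block. The scripts were tested on simulated data.

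The donor pairs the libraries because the labels use the same names in both cell types, which are read here as the MSC donor of the medium. Deviations from the group means correlated between same-donor libraries at 0.0449 (AG1), 0.0947 (ORC) and 0.0574 (PC) over all genes tested, and at 0.287, 0.249 and 0.321 over the 8538 genes of at least 10 CPM. No 2 libraries agreed within sampling noise.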

Additional observations from a re-analysis of the deposited data

How the results depend on the processing

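With resting MSC-CM the counts of genes higher and lower in chondrocytes stayed within 1.5 times those reported under every alternative run. The fit with the MSC donor as a replicate block gave 606 and 799 genes with resting MSC-CM, 450 and 704 with TLR-MSC-CM, 595 and 823 with STING-MSC-CM, and 0 genes for the dependence on medium, and among the named genes it changed the calls of HBEGF, IL6, LIF, LIPG, NKX3-2, THY1 and TSPAN15 and no other. Leaving out 1 library at a time gave 478 to 859 genes higher and 634 to 1147 lower with resting MSC-CM. Among counts over all genes, the one setting that moved a count further was the pseudocount: at 0.1 CPM, 945 and 1471 genes were at least 2-fold higher and lower with cytokines alone, and 1032 and 1364 with no addition, where no replicate exists. The cause was not tested. Of 184 named genes that were called, 31 lost the call under at least 1 alternative, 24 of them only when a library was left out, and no named gene changed direction. The genes that lost it only in this way were ADAMTS2, ADAMTS5, BMP2, BMP7, COL1A1, COL1A2, CSF3, CXCL6, ERRFI1, HOXC8, IL18R1, IL1B, IL7, LAMA3, LAMA4, MAD2L1, MYLK, NOTCH3, RUNX2, SOD2, TAP1, TNFRSF11B, TNFRSF1B and VCAM1, and the others were HBEGF, IL1A, LIF, LIPG, MX1, NKX3-2 and TSPAN15. Depth limits the genes near 3 counts per library, such as COL2A1, for which no difference was detectable.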
